A study of Mus musculus with 9 samples.

Results

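The genes described here are 9 enzymes and regulators of de novo lipogenesis, the synthesis of fatty acids from carbohydrate: Srebf1, Mlxipl, Thrsp, Pklr, Me1, Acly, Acaca, Fasn and Gpam. They were chosen by name, with earlier results of these data known. The array holds 12393 genes that have a probe set assigned to a single gene, and all 9 were found among them. They were read by 18 such probe sets, of which 17 were bright enough to be tested. The probe set left out, 1439445_x_at of Acly, lay between 5.31 and 53.4 on every array. The brightest probe set of each gene stands for it below, and its other probe sets are given beside it.

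In the liver, glucose is broken down to pyruvate and carried into mitochondria, leaves them as citrate, and is rebuilt into palmitate in the cytosol with reducing power from NADPH. After a carbohydrate meal insulin raises SREBP-1c, the liver form of the transcription factor encoded by Srebf1, while glucose metabolites activate ChREBP, the factor encoded by Mlxipl. Both factors increase the transcription of the enzymes of the pathway, and fasting lowers it.

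Liver RNA was profiled on 9 mouse arrays in 3 groups of 3 samples. NT-Co livers came from mice without a tumour that received vehicle (replicates 8, 10 and 11). T-Co livers came from vehicle-treated mice carrying TK-4, a human colon cancer grown in the cecal wall (replicates 9, 10 and 13), and T-TSU livers from mice with the same tumour treated with TSU68 (replicates 2, 12 and 14). TSU68 is an oral inhibitor of the VEGF, PDGF and FGF receptor tyrosine kinases, given at 400 mg/kg/day for 1 week from day 7 after implantation. The mice given the tumour were BALB/c nu/nu males, which lack a thymus and T cells, and 6 weeks old at implantation. The sources used here do not state these facts for mice without a tumour, nor whether those were operated on, nor the feeding state and the hour at which livers were taken. Tumour-free mice given TSU68 are not analysed here. The sample titles, which give the replicate numbers, do not say whether samples are separate animals, and the p-values cover only the spread seen between samples.

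The deposited intensities had been scaled to the same level on every array, and array medians were 107 to 119. On the second principal component T-Co replicate 13 lay apart, at 48.1 against -29.9 to 17.5 for the other arrays. For beta-actin, the intensity of the 3′ control over that of the 5′ control, a sign of RNA integrity and labelling, was 2.26 to 3.14 in NT-Co, 1.88 to 2.10 in T-Co and 1.79 to 2.16 in T-TSU, so that every NT-Co array was above every other array. All 8 hepatocyte markers on the array were bright enough to test, and their summed intensity was 197199 to 216549 in NT-Co, 239910 to 248470 in T-Co and 200440 to 222960 in T-TSU. White fat also makes lipogenic enzymes, so its markers matter here. Of 9 adipocyte markers on the array, 5 were too dim to test (Adipoq, Retn, Lep, Cidea and Aqp7), and the summed intensity was 7904 to 9522, 12997 to 18834 and 12782 to 15771 in the same order. Nearly all of that sum was Pck1, which hepatocytes also express. Without it the ranges were 408 to 522, 518 to 1260 and 422 to 840.

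The promoters of 3 members are shown first, those of Srebf1 and Thrsp because they are the members that passed a test and that of Fasn because it makes the product of the pathway. SREBP-1, the factor NF-Y and Sp1-type factors are known to act through short elements near the start sites of lipogenic genes. They are RefSeq windows of build GRCm38.p6 from 250 bases before to 50 after an annotated start, printed 5′ to 3′ on the gene's strand. They are Srebf1 at chr11:60210422-60210721, minus strand, Thrsp at chr7:97417501-97417800, minus strand, and Fasn at chr11:120824498-120824797, minus strand. Srebf1 has 3 annotated windows, of which the one of lowest coordinate is shown, and which of the starts the probe set reads was not examined. Capitals mark matches on either strand to 4 motifs: the sterol regulatory element core ATCACCC, the E-box CACGTG, the CCAAT box CCAAT and the GC box GGGCGG.
Srebf1: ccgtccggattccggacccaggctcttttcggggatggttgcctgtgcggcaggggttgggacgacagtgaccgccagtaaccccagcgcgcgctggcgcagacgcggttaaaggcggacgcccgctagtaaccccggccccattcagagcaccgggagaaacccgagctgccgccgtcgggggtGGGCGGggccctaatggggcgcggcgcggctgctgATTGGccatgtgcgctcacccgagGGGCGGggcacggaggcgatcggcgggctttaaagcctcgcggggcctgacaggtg
Thrsp: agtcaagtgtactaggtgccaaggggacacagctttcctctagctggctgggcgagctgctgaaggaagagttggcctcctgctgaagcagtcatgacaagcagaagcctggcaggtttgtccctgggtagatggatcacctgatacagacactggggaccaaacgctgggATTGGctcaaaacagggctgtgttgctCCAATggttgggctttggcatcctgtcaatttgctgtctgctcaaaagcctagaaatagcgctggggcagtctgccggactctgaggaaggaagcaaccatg
Fasn: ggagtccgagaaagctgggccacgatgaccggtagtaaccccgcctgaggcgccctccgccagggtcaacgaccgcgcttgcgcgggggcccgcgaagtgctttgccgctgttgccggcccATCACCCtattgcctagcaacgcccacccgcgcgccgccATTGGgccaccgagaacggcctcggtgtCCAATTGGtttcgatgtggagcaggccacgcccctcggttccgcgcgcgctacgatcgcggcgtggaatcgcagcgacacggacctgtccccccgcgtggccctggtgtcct

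The Fasn window holds the sterol regulatory element core 129 bases before the start and 3 CCAAT boxes, of which 2 overlap as CCAATTGG. The Thrsp window holds 2 CCAAT boxes, at 79 and 52 bases before the start, and no match to the other motifs. The Srebf1 window holds 1 CCAAT box and 2 GC boxes. Over the 15 annotated windows of the 9 genes, the ATCACCC core was found in 1 window, that of Fasn, and CACGTG in 1, that of Mlxipl. CCAAT was found in 9 windows of 8 genes and GGGCGG in 6 windows of 5 genes. Of 32851 mouse windows of the same length, 2.69% hold ATCACCC, 7.15% CACGTG, 37.4% CCAAT and 35.7% GGGCGG. These matches describe letters, not binding.

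The first comparison, T-Co against NT-Co, asked how the liver of a mouse with a tumour elsewhere differs from that of a mouse without. Srebf1 was lower and Thrsp higher in T-Co, each by more than the spread between replicates, and the 7 other members did not pass the test. Of the 9 members 2 were called, 1 in each direction, by limma at an adjusted p under 0.05 (Benjamini-Hochberg over the 15838 probe sets tested). Over all 9225 genes tested, 6.32% were called, 3.56% higher and 2.76% lower. The median difference of the members was -0.35 on the log2 scale against -0.02 for all genes, with 7 members below 0 and 2 above. The T-Co and NT-Co arrays did not overlap for 4 members, Thrsp (higher) and Srebf1, Me1 and Gpam (lower), where 26.7% of all genes had no overlap, 12.9% higher and 13.7% lower.

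**Figure D1:**
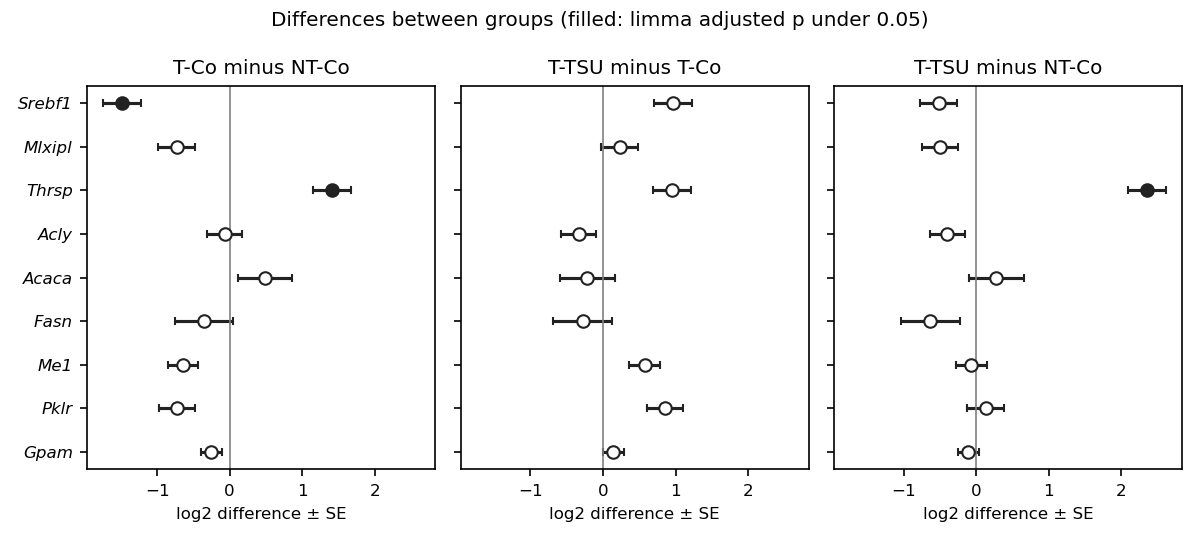
Log2 difference (x axis, ± SE from the limma fit over 9 arrays) of each lipogenic gene in 3 comparisons, filled where the adjusted p was under 0.05. Srebf1 (-1.48) and Thrsp (1.40) are filled for T-Co minus NT-Co, none for T-TSU minus T-Co, and Thrsp (2.35) for T-TSU minus NT-Co.

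Srebf1 encodes SREBP-1, the sterol regulatory element-binding protein that drives the fatty acid synthesis genes. Its intensity was 3971, 3998 and 5769 in NT-Co replicates 8, 10 and 11. It was 1716, 1261 and 1917 in T-Co replicates 9, 10 and 13, and 4998, 2508 and 2472 in T-TSU replicates 2, 12 and 14. All T-Co arrays were below all others, while 1 T-TSU array lay among the NT-Co arrays and the other 2 between the groups. Srebf1 fell by 1.48 ± 0.26 on the log2 scale in T-Co, 2.80-fold lower than in NT-Co (95% interval -2.05 to -0.92, adjusted p = 0.00621). This is a level in bulk liver RNA, where fewer cells of a type and less RNA per cell cannot be told apart. The difference was -1.61 without T-Co replicate 13 (adjusted p = 0.00772) and lay between -1.61 and -1.31 over all 9 omissions of 1 array. With the beta-actin ratio as a covariate, which was chosen after seeing the data, it was -1.04 and no longer passed (adjusted p = 0.417). In T-TSU the level was 0.96 ± 0.26 above T-Co, with no overlap (95% interval 0.40 to 1.53, adjusted p = 0.219), and 0.52 ± 0.26 below NT-Co (adjusted p = 0.349).

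Thrsp, the thyroid hormone responsive protein, is a nuclear and cytosolic protein of lipogenic tissues whose transcription responds to carbohydrate and thyroid hormone. Its intensity was 2143, 2858 and 4468 in NT-Co replicates 8, 10 and 11, and 9058, 5879 and 9594 in T-Co replicates 9, 10 and 13. It was 15355, 12130 and 19796 in T-TSU replicates 2, 12 and 14. No group overlapped another, and the order was NT-Co, T-Co, T-TSU. Thrsp rose 2.65-fold in T-Co over NT-Co (log2 1.40 ± 0.26, 95% interval 0.83 to 1.98, adjusted p = 0.00869) and 5.11-fold in T-TSU over NT-Co (log2 2.35 ± 0.26, adjusted p = 0.000697). The step from T-Co to T-TSU was 0.95 ± 0.26 (95% interval 0.38 to 1.52) and did not pass (adjusted p = 0.225), although the arrays did not overlap.

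A dimmer Thrsp probe set, 1422973_a_at, gave the same order with wider steps. Its intensity was 623 to 1371 in NT-Co, 2803 to 4213 in T-Co and 6359 to 11473 in T-TSU. The log2 differences were 1.94 ± 0.28 (T-Co over NT-Co, adjusted p = 0.00207), 1.22 ± 0.28 (T-TSU over T-Co, adjusted p = 0.151) and 3.16 ± 0.28 (T-TSU over NT-Co, adjusted p = 0.000223). Of the 17 tested probe sets of the members, 3 were called for T-Co against NT-Co, the Srebf1 probe set and both of Thrsp, where 6.54% of all probe sets were. Thrsp and Srebf1 thus moved in opposite directions between NT-Co and T-Co. Without the intensity trend in the variance model the brighter Thrsp probe set missed the threshold for T-Co (adjusted p = 0.0543). With the beta-actin covariate its difference was 1.36 for T-Co (adjusted p = 0.303) and 2.31 for T-TSU over NT-Co (adjusted p = 0.0627).

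**Figure D2:**
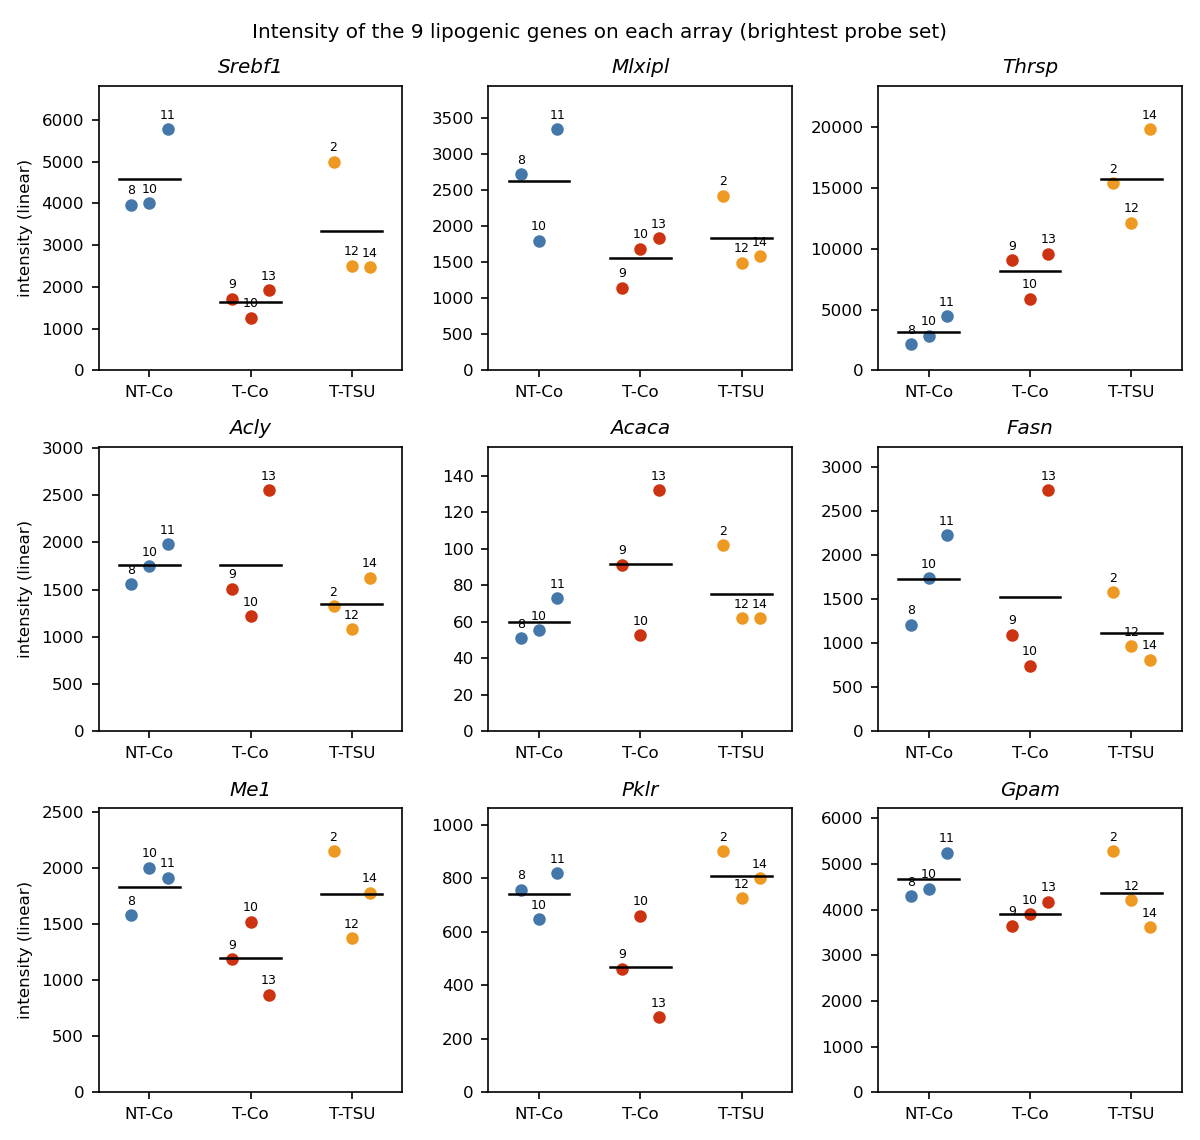
Linear intensity (y axis, from 0) of the brightest probe set of each lipogenic gene on each array, labelled with its replicate number, with the mean of 3 as a line. Thrsp rises from NT-Co (2143 to 4468) through T-Co (5879 to 9594) to T-TSU (12130 to 19796) without overlap, and T-Co replicate 13 is the highest of all 9 arrays for Fasn (2740), Acly (2548) and Acaca (132).

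Mlxipl encodes ChREBP, the carbohydrate response element-binding protein. Its intensity was 2723, 1802 and 3346 in NT-Co replicates 8, 10 and 11, 1148, 1690 and 1839 in T-Co replicates 9, 10 and 13, and 2428, 1497 and 1587 in T-TSU replicates 2, 12 and 14. NT-Co replicate 10 lay within the range of T-Co, so the groups overlapped. The difference of T-Co from NT-Co was -0.73 ± 0.25 and did not pass (95% interval -1.28 to -0.18, adjusted p = 0.109). It passed without NT-Co replicate 10 (-0.98, adjusted p = 0.0475). It was -0.53 both without NT-Co replicate 11 (adjusted p = 0.344) and without T-Co replicate 9 (adjusted p = 0.271). With the beta-actin covariate it was -0.03 (adjusted p = 0.989). T-TSU was 0.23 ± 0.25 above T-Co (adjusted p = 0.805) and 0.50 ± 0.25 below NT-Co (adjusted p = 0.352).

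Pklr encodes the liver pyruvate kinase, which makes pyruvate at the end of glycolysis and is a classical target of ChREBP. Its intensity was 758, 647 and 819 in NT-Co replicates 8, 10 and 11, and 462, 660 and 281 in T-Co replicates 9, 10 and 13. It was 901, 727 and 802 in T-TSU replicates 2, 12 and 14. All T-TSU arrays were above all T-Co arrays and within or above the NT-Co range. The difference of T-Co from NT-Co was -0.73 ± 0.25 (95% interval -1.27 to -0.19, adjusted p = 0.106), which passed without T-Co replicate 10 (-1.02, adjusted p = 0.0219). It was -0.41 without T-Co replicate 13 (adjusted p = 0.277). T-TSU was 0.86 ± 0.25 above T-Co (95% interval 0.31 to 1.40, adjusted p = 0.251) and 0.13 ± 0.25 above NT-Co (adjusted p = 0.869).

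The other 2 Pklr probe sets were also higher in T-TSU than in T-Co, by 0.69 ± 0.20 for 1421258_a_at (adjusted p = 0.250, no overlap) and 0.88 ± 0.34 for 1421259_at (adjusted p = 0.396). They did not follow the brightest one between T-Co and NT-Co, where their differences were -0.07 ± 0.20 and -0.17 ± 0.34. Against NT-Co, T-TSU was 0.62 ± 0.20 higher for 1421258_a_at (adjusted p = 0.119), with arrays at 483 to 642 above NT-Co arrays at 306 to 434. The 3 probe sets therefore agree in sign for TSU68 against vehicle in tumour-bearing mice and disagree in size for tumour against no tumour.

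Me1 encodes cytosolic malic enzyme, which makes NADPH for fatty acid synthesis. Its intensity was 1579, 2007 and 1915 in NT-Co replicates 8, 10 and 11, and 1191, 1524 and 874 in T-Co replicates 9, 10 and 13. It was 2151, 1375 and 1784 in T-TSU replicates 2, 12 and 14. T-Co arrays were all below NT-Co arrays, while T-TSU overlapped both groups. The difference of T-Co from NT-Co was -0.64 ± 0.21 (95% interval -1.10 to -0.18, adjusted p = 0.0934), and it passed without T-Co replicate 10 (-0.83, adjusted p = 0.0398). T-TSU was 0.57 ± 0.21 above T-Co (adjusted p = 0.368) and 0.07 ± 0.21 below NT-Co. The dimmer probe set 1416632_at gave -0.12 ± 0.31 for T-Co against NT-Co and -0.12 ± 0.31 for T-TSU against NT-Co. For T-TSU against T-Co it gave -0.001 ± 0.31, so it did not show the higher level of the brightest probe set.

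Acly encodes ATP citrate lyase, which splits exported citrate into the acetyl-CoA used for lipid synthesis. Its intensity was 1557, 1745 and 1982 in NT-Co replicates 8, 10 and 11, 1511, 1216 and 2548 in T-Co replicates 9, 10 and 13, and 1323, 1082 and 1624 in T-TSU replicates 2, 12 and 14. The 3 groups overlapped, and T-Co replicate 13 was the highest array. The difference of T-Co from NT-Co was -0.07 ± 0.24 (95% interval -0.59 to 0.45, adjusted p = 0.907), and T-TSU was 0.33 ± 0.24 below T-Co (adjusted p = 0.670). The other 3 tested probe sets gave -0.28 to 0.26 for T-Co against NT-Co, with both signs, and none was called in any comparison.

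Acaca encodes an acetyl-CoA carboxylase, which makes malonyl-CoA in the committed step, and Fasn the synthase that builds palmitate from it. Acaca was dim, at 51.2, 55.3 and 73.0 in NT-Co replicates 8, 10 and 11, 91.3, 52.5 and 132 in T-Co replicates 9, 10 and 13, and 102, 62.0 and 61.9 in T-TSU replicates 2, 12 and 14, where the lower limit for testing was 36.2. Its groups overlapped in every comparison, and the difference of T-Co from NT-Co was 0.49 ± 0.37 (95% interval -0.32 to 1.31, adjusted p = 0.497). Fasn intensity was 1211, 1742 and 2230 in NT-Co replicates 8, 10 and 11, 1101, 747 and 2740 in T-Co replicates 9, 10 and 13, and 1585, 969 and 815 in T-TSU replicates 2, 12 and 14. The T-Co group held both the highest and the lowest Fasn value of the 9 arrays. The difference of T-Co from NT-Co was -0.35 ± 0.40 (95% interval -1.22 to 0.52, adjusted p = 0.671). It was -0.88 without T-Co replicate 13 (adjusted p = 0.129) and 0.05 without T-Co replicate 10. For T-TSU against NT-Co it was -0.63 ± 0.40 (95% interval -1.50 to 0.24, adjusted p = 0.487). The intervals of Fasn and Acaca include both 0 and a 2-fold change in 1 direction, so the arrays do not settle whether the synthase or the carboxylase differed.

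Gpam encodes the mitochondrial acyltransferase that attaches the first fatty acid to glycerol phosphate. Its intensity was 4297, 4462 and 5253 in NT-Co replicates 8, 10 and 11, 3648, 3898 and 4177 in T-Co replicates 9, 10 and 13, and 5278, 4208 and 3614 in T-TSU replicates 2, 12 and 14. T-Co arrays were all below NT-Co arrays by a small step, and T-TSU spanned both. The difference of T-Co from NT-Co was -0.25 ± 0.15 (95% interval -0.57 to 0.06, adjusted p = 0.340). A dimmer probe set, 1425834_a_at, had the opposite sign, at 0.54 ± 0.33 (adjusted p = 0.384), and the mean of both probe sets gave 0.14, so no direction is given for Gpam.

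**Figure D3:**
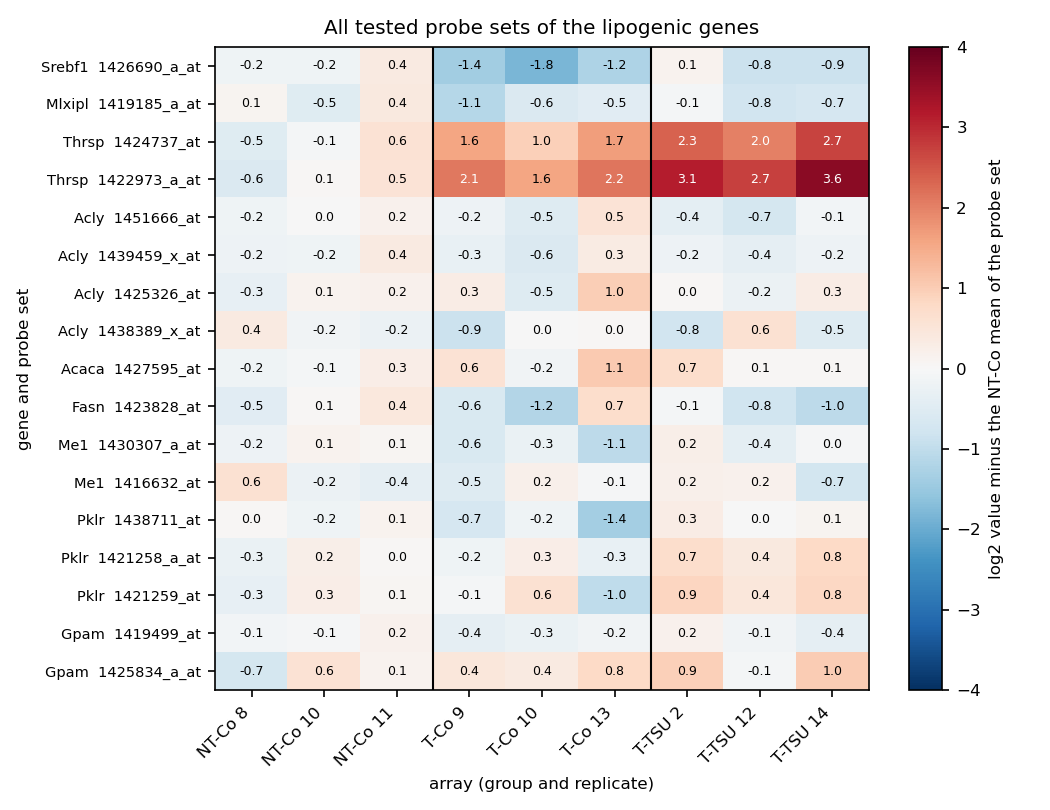
Log2 value of each of the 17 tested probe sets (rows) on each array (columns), minus the NT-Co mean of that probe set. Both Thrsp rows are above 0 on all T-Co and T-TSU arrays, the Srebf1 row is below 0 on all T-Co arrays, and the Gpam rows have opposite signs in T-Co.

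TSU68 was compared with vehicle in tumour-bearing mice to ask what the kinase inhibitor does to the liver of a tumour-bearing mouse. No member passed limma's test (0 of 9 called, where 0.0542% of all genes were), and 4 had an unadjusted p under 0.05, where 11.5% of all genes did. Those 4 were Srebf1 (0.96), Thrsp (0.95), Pklr (0.86) and Me1 (0.57), all higher in T-TSU. For 3 of them the arrays were fully separated, Srebf1, Thrsp and Pklr, where 14.6% of all genes had no overlap and 7.08% were higher without overlap. The Srebf1 difference was 0.63 without T-TSU replicate 2. Without T-Co replicate 13 the Pklr difference was 0.54 and that of Me1 0.37. The dimmer Me1 probe set, 1416632_at, gave -0.001 ± 0.31 for this comparison. The members' median difference was 0.23 against 0.00 for all genes. Intervals were wide, as for Acly (-0.85 to 0.19) and Fasn (-1.15 to 0.59).

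The T-Co arrays enter this comparison and that with NT-Co with opposite signs, so the values are set side by side only. By their brightest probe sets, Srebf1, Pklr and Me1 were at -1.48, -0.73 and -0.64 for T-Co against NT-Co. For T-TSU against T-Co they were at 0.96, 0.86 and 0.57. Thrsp was at 1.40 and 0.95. In the same order, Mlxipl was at -0.73 and 0.23, Gpam at -0.25 and 0.14, and Acaca at 0.49 and -0.21. Acly (-0.07 and -0.33) and Fasn (-0.35 and -0.28) were below 0 in both. The dimmer probe sets of Pklr (-0.07 and -0.17) and Me1 (-0.12) gave smaller differences for T-Co against NT-Co. The comparison of T-TSU with NT-Co, in which tumour and TSU68 differ together, called 1 member, Thrsp, where 3.61% of genes were called, 2.06% higher. Thrsp was also the 1 member without overlap there, where 24.1% of genes had none, 11.5% higher. The other 8 members lay between -0.63 (Fasn) and 0.28 (Acaca), and the median of all 9 was -0.11 against -0.01 for all genes. Of the members, 2 passed limma's F test for any difference between the 3 groups, Thrsp (adjusted p = 0.00136) and Srebf1 (adjusted p = 0.0139), where 5.56% of genes did. Without NT-Co replicate 11 this count was 1.

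Within each group, the array on which each member was highest or lowest was recorded. The share of all genes highest or lowest on each array was not counted, so the member counts are a description. Over all 9 arrays, Pearson's r of log2 values between members ran from -0.60 (Acaca and Pklr) to 0.90 (Me1 and Pklr). NT-Co replicate 11 was the highest of its group for 8 of 9 members, all but Me1, and NT-Co replicate 8 the lowest for 7. T-TSU replicate 2 was the highest of its group for 7, all but Thrsp and Acly. T-Co replicate 13 was the highest of its group for 7 members and the lowest for Me1 and Pklr. T-Co replicate 10 was its near mirror, lowest for 5 of those 7 (Srebf1, Thrsp, Acly, Acaca and Fasn) and highest for Me1 and Pklr. In T-Co the coefficient of variation was 69.5% for Fasn, 39.8% for Acly and 6.78% for Gpam, and in NT-Co it was 29.5%, 12.1% and 10.9%. It was also larger in T-Co for Acaca, Me1 and Pklr. It was smaller in T-Co for Srebf1 (20.6% against 22.5%), Thrsp (24.6% against 37.7%) and Mlxipl (23.3% against 29.6%). T-Co replicate 13 is also the array that stood apart on the second principal component. Leaving it out left the calls of Srebf1 and Thrsp in place (Thrsp 1.27, adjusted p = 0.0264).

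The rest of the pathway was taken from 6 lists, written with earlier results of these data known, so the shares called are given as a description. The lists hold 104 genes, of which 82 were tested. For T-Co against NT-Co 14 of them passed, 7 higher and 7 lower (17.1%), and for T-TSU against NT-Co 15 passed, 7 higher and 8 lower (18.3%), beside the 6.32% and 3.61% of all genes given above. For T-TSU against T-Co limma called 0 of the 82, with 10 at an unadjusted p under 0.05, where 11.5% of all genes were. Of the 40 called differences of members, these pathway genes and the 4 fasting and clock genes below, each by its brightest probe set, 36 missed the threshold with the beta-actin covariate and all 40 kept their sign. Because every NT-Co array had a higher ratio than every other array, the ratio and the group cannot be told apart in this fit. A part of the beta-actin ratio in these differences was not tested.

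Among 16 tested genes of fatty acid synthesis, elongation and desaturation, 2 were lower and none higher in T-Co. Elovl3, an elongase of saturated and monounsaturated long chains, had an intensity of 12422 to 16097 in NT-Co, 315 to 1199 in T-Co and 840 to 1579 in T-TSU. It fell by 4.20 ± 0.40 in T-Co (adjusted p = 0.000344) and by 3.49 ± 0.40 in T-TSU against NT-Co (adjusted p = 0.000738). Elovl5, which elongates polyunsaturated chains, fell by 0.80 ± 0.19 in T-Co (adjusted p = 0.0271). That call ended in 4 of 19 alternatives, with an adjusted p of up to 0.121 without NT-Co replicate 11. Counts of alternatives and highest adjusted p given for single genes here and below leave out the beta-actin covariate. With that covariate the adjusted p of Elovl5 was 0.741. In T-TSU against NT-Co the elongase Elovl1 fell by 0.81 ± 0.17 (adjusted p = 0.0173, lost in 4 of 19 alternatives, up to 0.0819 without NT-Co replicate 11) and the desaturase Fads2 rose by 0.89 ± 0.22 (adjusted p = 0.0469, lost in 10, up to 0.187 without T-TSU replicate 14). Mid1ip1, a paralogue of Thrsp that binds acetyl-CoA carboxylase and is named here after its values were seen, was at 849 to 1231 in NT-Co, 476 to 724 in T-Co and 485 to 1030 in T-TSU. Its difference was -0.89 ± 0.26 in T-Co (adjusted p = 0.0602), opposite in sign to that of Thrsp. The median of the list was -0.21 in T-Co.

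Among 12 tested genes of glyceride synthesis downstream of Gpam, 3 rose and 1 fell in T-Co. Lpin1 and Lpin2 encode lipins, phosphatidate phosphatases that make diacylglycerol. Lpin1 was at 103 to 183 in NT-Co, 1813 to 4549 in T-Co and 810 to 3287 in T-TSU, a rise of 4.05 ± 0.47 in T-Co (adjusted p = 0.000902) and 3.65 ± 0.47 in T-TSU (adjusted p = 0.0016). Lpin2 rose by 1.87 ± 0.31 and 1.91 ± 0.31 (adjusted p = 0.00416 and 0.00498). Dgat2, which adds the last acyl chain of triglyceride, rose by 0.61 ± 0.16 in T-Co (adjusted p = 0.0472) and 0.79 ± 0.16 in T-TSU (adjusted p = 0.0197). The T-Co call of Dgat2 ended in 12 of 19 alternatives (adjusted p up to 0.172, without NT-Co replicate 8), and its T-TSU call in 4 (up to 0.0970, without the intensity trend). Plin2, the coat protein of hepatic lipid droplets, was at 6293 to 7233 in NT-Co, 2464 to 2963 in T-Co and 3148 to 4328 in T-TSU. It fell by 1.33 ± 0.14 in T-Co (adjusted p = 0.000472) and by 0.91 ± 0.14 in T-TSU (adjusted p = 0.00331). The list's median was 0.33 in T-Co.

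Of 17 tested genes for SREBP-1c processing and its activators, 2 rose and 2 fell in T-Co, with a list median of 0.09. Insig2 encodes a membrane protein that retains SREBP in the endoplasmic reticulum. It was at 10497 to 12885 in NT-Co, 3617 to 8964 in T-Co and 2660 to 3661 in T-TSU. It fell by 0.95 ± 0.25 in T-Co (adjusted p = 0.0451, lost in 12 of 19 alternatives, up to 0.150 without NT-Co replicate 8) and its difference was -1.86 ± 0.25 in T-TSU against NT-Co (adjusted p = 0.00214). The insulin receptor substrate Irs1 fell by 1.09 ± 0.18 in T-Co (adjusted p = 0.00416) and by 0.95 ± 0.18 in T-TSU (adjusted p = 0.0116, lost in 4 of 19 alternatives, up to 0.0604 without T-TSU replicate 14). Pik3r1, a regulatory subunit of PI3-kinase, rose by 0.97 ± 0.20 (adjusted p = 0.0124, lost without NT-Co replicate 8 and with the mean of its probe sets, up to 0.0793) and 1.33 ± 0.20 (adjusted p = 0.0032). Irs2, a second substrate, rose by 2.02 ± 0.48 in T-Co (adjusted p = 0.0261) from 9.42 to 55.5 in NT-Co, which is near the lower limit for testing, to 99.0 to 200 in T-Co. Its call ended in 5 of 18 alternatives (adjusted p up to 0.0813, without T-Co replicate 13).

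Of 11 tested ChREBP partners and glucose-responsive genes, 2 fell in T-Co and the same 2 in T-TSU, with a T-Co median of 0.16. Ppp1r3c, which targets a phosphatase to glycogen, was at 4010 to 4936 in NT-Co, 399 to 1156 in T-Co and 765 to 1114 in T-TSU. It fell by 2.71 ± 0.30 (adjusted p = 0.000699) and by 2.18 ± 0.30 (adjusted p = 0.00202). Angptl8, a secreted inhibitor of lipoprotein lipase that is induced by feeding, fell by 2.46 ± 0.55 (adjusted p = 0.0198) and by 2.53 ± 0.55 (adjusted p = 0.0227). Its calls ended in 5 and 7 of 19 alternatives (adjusted p up to 0.0850 and 0.107, with a robust trend). Of 16 tested restraints on lipogenesis, 2 rose in T-Co. They were Cpt1a, which carries fatty acids into mitochondria for oxidation (0.83 ± 0.22, adjusted p = 0.0439, lost in 13 of 19 alternatives), and the deacetylase Sirt1 (0.82 ± 0.20, adjusted p = 0.0328, lost in 6). Cpt1a also rose in T-TSU against NT-Co (1.07 ± 0.22, adjusted p = 0.0181, lost in 6), but the mean of its probe sets did not pass in either group (adjusted p = 0.824 for T-Co, 0.457 for T-TSU). None of the list was called lower.

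Of 11 tested genes that supply substrate and NADPH, limma called 0 for T-Co against NT-Co, and the list median was -0.19. An unadjusted p under 0.05 was found for 3, and the share of all genes at that p was not counted for this comparison. In T-TSU against NT-Co, Slc2a2, the hepatic glucose transporter, rose by 0.61 ± 0.14 (adjusted p = 0.0291). Pgd, which makes NADPH in the pentose phosphate pathway, fell by 0.72 ± 0.16 (adjusted p = 0.0262). The Slc2a2 call ended in 7 and the Pgd call in 6 of 19 alternatives (adjusted p up to 0.125 without the intensity trend and 0.126 without NT-Co replicate 11).

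**Figure D4:**
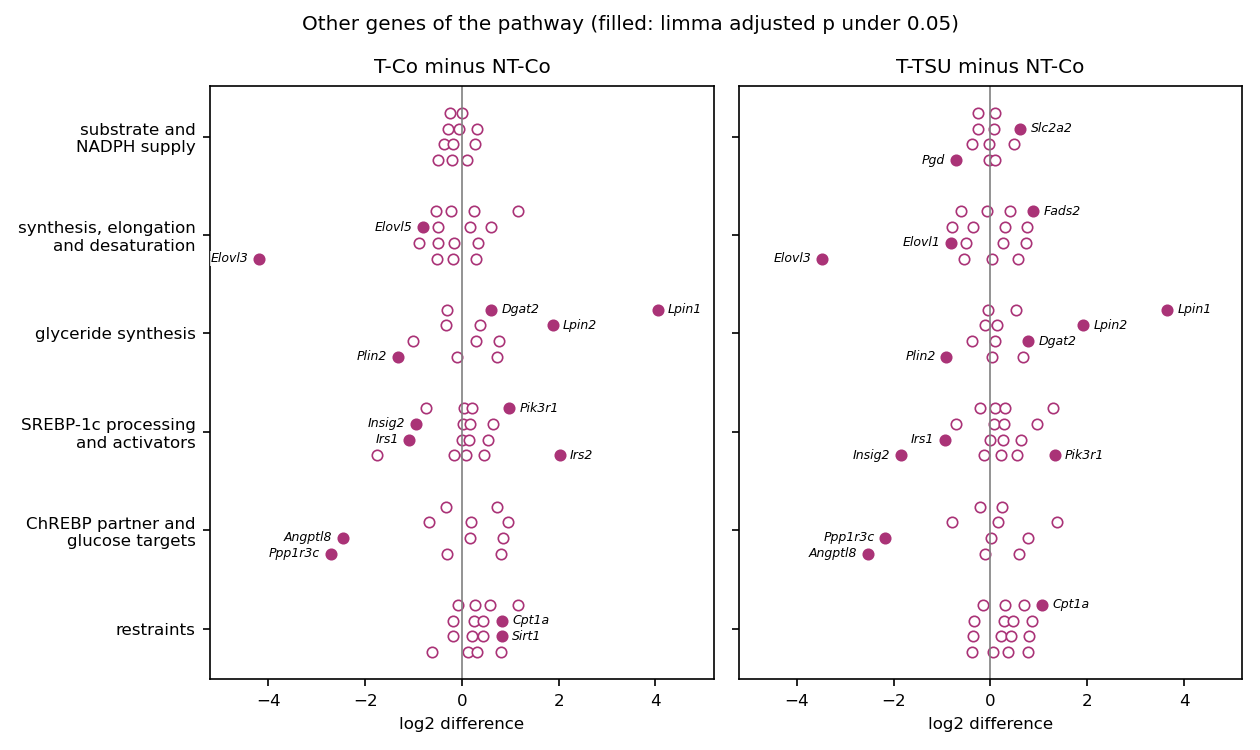
Log2 difference (x axis) of each tested gene of the 6 pathway lists (rows, with points spread vertically for legibility only), filled and named where the limma adjusted p was under 0.05. The widest differences are those of Elovl3 (-4.20 in T-Co, -3.49 in T-TSU) and Lpin1 (4.05 and 3.65).

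Igfbp1, Pck1, Dbp and Arntl, which respond to fasting or to the hour of the day, also differed from NT-Co on these arrays. Igfbp1, a liver gene that insulin represses, was at 247 to 1088 in NT-Co, 5907 to 23565 in T-Co and 1609 to 4807 in T-TSU, a rise of 4.94 ± 0.59 in T-Co (adjusted p = 0.000908). It also rose by 2.80 ± 0.59 in T-TSU against NT-Co (adjusted p = 0.0206, lost in 6 of 19 alternatives, up to 0.131 with a robust trend). Pck1, the cytosolic enzyme that commits carbon to gluconeogenesis, rose by 0.91 ± 0.15 in T-Co (adjusted p = 0.00432) and by 0.72 ± 0.15 in T-TSU (adjusted p = 0.0194, lost in 6). Neither passed with the mean of its probe sets (adjusted p = 0.438 and 0.464). G6pc and Fgf21, which fasting can also raise, had the opposite sign and were not called. Against NT-Co, G6pc was at -0.31 in T-Co and -0.79 in T-TSU, and Fgf21, a dim gene, at -0.67 and -0.21. The clock output factor Dbp was at 68.1 to 97.4 in NT-Co, 158 to 2465 in T-Co and 1466 to 4343 in T-TSU. It rose by 3.17 ± 0.74 in T-Co (adjusted p = 0.0256, lost in 7 of 19 alternatives, up to 0.126 with a robust trend) and by 4.62 ± 0.74 in T-TSU against NT-Co (adjusted p = 0.00498, 0.0603 with a robust trend). The clock factor Arntl was at 437 to 532, 58.1 to 293 and 15.7 to 54.1 in the same order. It fell by 2.16 ± 0.53 in T-Co (adjusted p = 0.0320, lost in 6, up to 0.101 without NT-Co replicate 8), and in T-TSU against NT-Co it fell by 3.47 ± 0.53 (adjusted p = 0.00371). From T-Co to T-TSU, Dbp differed by 1.45 ± 0.74 (adjusted p = 0.531) and Arntl by -1.31 ± 0.53 (adjusted p = 0.408), with overlap for Dbp only. The part of fasting and clock genes in the differences of the lipogenic genes was not tested.

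Markers of liver cell types and of tissues that a liver sample could hold were counted by the same test. For T-Co against NT-Co, 3 of 8 tested hepatocyte markers were higher, the urea cycle enzyme Cps1 (0.46 ± 0.09, adjusted p = 0.00988), the plasma protein gene Ahsg (0.51 ± 0.10, adjusted p = 0.0135) and the tyrosine aminotransferase Tat (0.86 ± 0.20, adjusted p = 0.0238). Of 4 adipocyte markers tested 1 was higher, Pck1. The endothelial marker Pecam1, 1 of 9 tested, was higher (1.89 ± 0.50, adjusted p = 0.0425), and the list's summed intensity was 2294 to 3019 in NT-Co, 2723 to 4352 in T-Co and 1922 to 2699 in T-TSU. Of 8 stellate cell markers 1 was lower, the collagen gene Col3a1 (-1.03 ± 0.20, adjusted p = 0.0101), with summed intensities of 7171 to 7792, 6396 to 6593 and 6659 to 8178 in the same order. The pancreatic acinar marker Cela1, the only 1 tested of 2 on the array, was lower (-1.85 ± 0.24, adjusted p = 0.00133). The other acinar marker, Cpa1, was too dim to test, so the acinar sum was mostly Cela1. It was 1947 to 2305 in NT-Co, 495 to 765 in T-Co and 804 to 1697 in T-TSU. T-Co was lowest and NT-Co highest. By brightest probe set, the group means of Srebf1, Mlxipl, Me1 and Gpam had this order. Those of Thrsp, Pklr, Acly, Acaca and Fasn did not, nor did the dimmer Gpam probe set, which was lowest in NT-Co.

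Limma called 0 of 10 macrophage markers in each comparison, with 3 at an unadjusted p under 0.05 for T-Co against NT-Co, 8 for T-TSU against T-Co and 2 for T-TSU against NT-Co. Their summed intensity was 8746 to 12019 in NT-Co, 11666 to 15925 in T-Co and 5443 to 11231 in T-TSU, so that the NT-Co range overlapped both others. Limma also called 0 of 5 neutrophil, 0 of 2 cholangiocyte and 0 of 3 skeletal muscle markers in each comparison. For T-Co against NT-Co, 2, 0 and 0 had an unadjusted p under 0.05. The share of all genes at that p was 11.5% for T-TSU against T-Co and was not counted for the comparisons with NT-Co. For T-TSU against T-Co no marker of any list was called, and for T-TSU against NT-Co only Pck1. The part of other cell types in the members' differences was not tested.

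Likeness of pattern was measured as Pearson's r of log2 values over the 9 arrays, which share their group structure, and is given as a description. The genes most like the mean profile of the 9 members were Pde9a (0.93), Blvra (0.91), Hes6 (0.90), Pts (0.89) and Dap3 (0.87). The gene most like Thrsp was Homer2 (0.96), at 497 to 555 in NT-Co, 731 to 894 in T-Co and 961 to 1169 in T-TSU, in the same order without overlap. The gene most like Srebf1 was Cdc23 (0.96), at 145 to 156, 63.0 to 91.2 and 92.0 to 158. The gene most like Pklr was Hibadh (0.98), at 9848 to 11574, 6089 to 9951 and 10439 to 11244. For Me1 it was Slc26a4 (0.98), a dim gene, for Mlxipl Tradd (0.95), for Acly Thap12 (0.95), for Fasn Fam32a (0.95), for Gpam Wdr13 (0.94) and for Acaca Igsf8 (0.93).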

How the data were processed

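Liver RNA of 3 groups of 3 samples was hybridised to 9 one-colour mouse arrays, and samples were grouped from their titles. The deposited values are linear intensities, 1 per probe set and array, with a mean of 500.3 on every array after trimming. Which software the authors used to summarise and scale them is not stated in what was used here. Of 22690 probe sets, 64 controls were left out, which left 22626. By the platform annotation 20380 of these map to 1 gene, 691 to several and 1555 to none. Genes were named only from the first kind.

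Intensities were analysed as log2(intensity + 7.92), the 10th percentile of all values, which understates the fold changes of dim genes. Probe sets with a mean under the 30th percentile (intensity 36.2) were removed, which left 15838 probe sets that cover 9225 named genes. A group-means model with an intensity trend over the 9 arrays was fitted in limma 3.58.1 (R 4.3.3, 6 residual degrees of freedom). Tests were two-sided, adjusted by Benjamini-Hochberg over all probe sets, with a threshold of 0.05. Errors are SE of the fit, and intervals are 95%. The number of arrays limits the precision. The fit was tested on simulated data, and the outcome is not reported here.

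All members were described. From the pathway lists, called genes were named, up to 4 per list and comparison by smallest p. Mid1ip1, G6pc and Fgf21 were added after their values were seen. Likeness named the 5 genes of highest r with the members' mean and 1 per member. The members and lists were chosen with earlier results of these data known. Alternatives were pseudocounts, filters, normalizations, variance models, the 2 groups alone, each array left out, the mean of a gene's probe sets and, chosen after seeing the data, the beta-actin ratio as a covariate.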

Additional observations from a re-analysis of the deposited data

How the results depend on the processing

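The 95% intervals of Fasn (-1.22 to 0.52) and Acaca (-0.32 to 1.31) for T-Co against NT-Co show how wide a change 3 arrays a group leave undetected. Acaca and Irs2 lay under the 50th percentile filter and were not tested with it. No paired analysis was possible because the groups share at most 1 replicate number. With the beta-actin covariate counted, Srebf1 passed for T-Co against NT-Co in 19 of 20 alternatives (-1.61 to -1.04) and Thrsp in 18 (1.16 to 1.69). Thrsp for T-TSU against NT-Co passed in 19 (2.11 to 2.76). Thrsp for T-TSU against T-Co passed in 0 of 20 (0.73 to 1.12, adjusted p 0.161 to 0.529).

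Without the intensity trend, called probe sets numbered 473 for the T-Co comparison with NT-Co (1036 as reported), 265 when T-TSU was set against NT-Co (609) and 312 by the F test (902), and called members 1 for T-Co against NT-Co and 1 by the F test. With the mean of a gene's probe sets, fewer features were tested and 517, 293 and 431 were called. With the beta-actin covariate the counts were 35, 49 and 35, and 0 members were called in any comparison. For T-TSU against T-Co (8 probe sets) the count was 26 with a pseudocount of 50, 14 with a robust trend, 1 with quantile normalization, and 0 with no filter, arrays centred on the median, no trend, only 2 groups, the mean of probe sets or the covariate. Leaving out 1 array gave 445 to 1016 probe sets for T-Co against NT-Co (lowest without NT-Co replicate 11), 0 to 58 for T-TSU against T-Co (highest without T-TSU replicate 12), 287 to 793 for T-TSU against NT-Co (lowest without T-TSU replicate 14) and 355 to 1007 by the F test (lowest without NT-Co replicate 11). Called members ranged over 2 to 4, 0, 1 and 1 to 3 in the same order. The 4 arose without T-Co replicate 10, and the cause was not tested.

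Sign changes arose for values that were not called. The mean of probe sets gave Gpam 0.14 in T-Co and 0.26 in T-TSU, both against NT-Co, and Pck1 0.035 for T-TSU against T-Co. The covariate gave Gpam 0.045 for T-Co against NT-Co, and Gpam 0.17, Mlxipl 0.16 and Me1 0.032 when T-TSU was set against NT-Co. Leaving out 1 array gave ranges that crossed 0 for Me1 (-0.22 to 0.10) and Gpam (-0.25 to 0.019) for T-TSU against NT-Co, Acly (-0.37 to 0.16) and Fasn (-0.88 to 0.052) for T-Co against NT-Co, and Acaca (-0.54 to 0.070), Fasn (-0.68 to 0.25) and Gpam (-0.00060 to 0.27) for T-TSU against T-Co. The cause of these was not tested. Of 1416 single-gene values under alternatives, 1221 kept direction and side of the threshold, 171 lost a call, 7 gained one and 17 changed sign.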
